A study of Mus musculus with 6 samples.

Results

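Erythroid cells of the postnatal day 8 (P8) bone marrow were compared by how close they lay to a macrophage. The section was imaged in situ, a method (Xenium) in which probes to a chosen set of genes are read out by imaging on an intact tissue slice, so that each RNA molecule has a position. A cell was taken as a macrophage when its raw transcripts of the complement genes C1qa, C1qb and C1qc summed to 10 or more. A cell was taken as erythroid when it held 8 or more transcripts of Slc4a1 and no C1q transcript. Near erythroid cells had their center within 15 µm of the center of the nearest macrophage, and far erythroid cells lay more than 40 µm from every macrophage. Of 52594 cells in the section, 592 were macrophages and 8597 were erythroid by this rule. Of the erythroid cells, 850 were near, 4192 lay between both limits and 3555 were far. Members were thus chosen by measured Slc4a1 and C1q counts and by distance, and these measures are given as a description only. The 4405 near and far cells are the subject here, out of 521938 cells in the 6 sections of the series.

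The section was cut at 5 µm from formalin-fixed, paraffin-embedded leg bone of untreated wild-type C57BL/6 mice at P8. The other sections were an E14.5 and an E13.5 fetal liver, an aged bone marrow, an untreated spleen and a spleen after phenylhydrazine (PHZ), all from wild-type mice. Each condition has 1 section, so cells are no replicates and no test across animals could be made. All intervals are exact at 95% confidence and cover counting error only, in this section alone.

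Red cells mature in the marrow in erythroblastic islands, clusters of erythroblasts around a central macrophage. The macrophage is known to hold erythroblasts through adhesion molecules such as Vcam1, to hand on iron, and to take up and digest the nuclei that maturing erythroblasts expel. As erythroblasts mature they stop dividing, load hemoglobin and lose surface receptors such as Kit and the transferrin receptor Tfrc. Slc4a1, the anion exchanger known as band 3, appears late in this course and stays on the red cell.

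The panel read 477 genes, and the cells of the section held 6446659 transcripts of them (median 109 in a cell). Among negative control probes the highest total was 40. Near cells held a median of 130.5 transcripts (lowest 40, highest 445) and far cells 132 (lowest 26, highest 543), so depth was alike in both groups. The total was 119311 transcripts in near and 503819 in far cells. Cell outlines were nuclei expanded into their surroundings, and an outline can therefore hold transcripts of its neighbors. Of the 24 erythroid genes in the lists used here, 22 were higher per cell in both groups than in the 26267 remaining cells without C1q, and 21 of them at least 2-fold. Podxl and Ndufa4l2 were lower, and Kit was close to equal. The remaining cells held a median of 82 transcripts, fewer than near and far cells, which raises every value per cell of the erythroid cells against theirs. The label of erythroid cells was thus borne by the genes, although these cells also held a mean of 1.33 (near) and 1.28 (far) transcripts of the neutrophil gene S100a9 against 1.35 in the remaining cells.

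The limits of the rule cut through continuous ranges. Cells at the lower Slc4a1 limit of 8 had a median of 103 transcripts and a median outline of 34.2 µm2, and those just outside it, with 7, had 99 transcripts and 34.7 µm2. Macrophages with a C1q count of 10 had a median of 165 transcripts, and cells with 9 had 149. Erythroid cells 14 to 15 µm from a macrophage had a median outline of 39.4 µm2, and those 15 to 16 µm away 43.3 µm2. Those 39 to 40 µm and 40 to 41 µm away had 45.2 µm2 and 42.5 µm2. The 8597 erythroid cells, which held no C1q transcript, had a median of 133 transcripts, and the 3429 cells left out for a single C1q transcript had 142.

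The demand for no C1q transcript removed more cells beside macrophages than away from them. Of the cells with 8 or more Slc4a1 transcripts that were no macrophages, 63.7% within 15 µm of a macrophage held 1 to 9 C1q transcripts and were left out. Beyond 40 µm this share was 45.1%. The cells left out near macrophages held 84148 CPM of the macrophage list (transcripts scaled to a common total, as defined with the gene comparison), against 47539.6 in the near cells that were kept. In far cells the same step parted 70968 CPM in those left out from 43772 CPM in those kept. Both groups are therefore the part of their erythroid cells that held fewer macrophage transcripts.

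Near cells lay a median of 12 µm from their macrophage, center to center, with the closest at 4.63 µm. Far cells lay a median of 56.4 µm away and up to 859 µm. Of the erythroid cells, 9.89% were near and 41.4% far. Of the 26267 remaining cells without C1q, 5.49% lay within 15 µm of a macrophage and 65.3% beyond 40 µm. Of the 592 macrophages, 301 were the nearest macrophage of at least 1 near erythroid cell, and 46.8% of the macrophages had no erythroid cell of this rule within 15 µm. Of the near cells, 775 had 1 macrophage within 15 µm, and the other 75 had up to 4. The surroundings resembled each other in erythroid density, with a median of 28 erythroid cells within 40 µm of a near and 27 of a far cell. The surroundings differed in all cells within 40 µm, with medians of 111 (109 to 114) near and 101 (99 to 103) far. Cells with 10 or more transcripts of neutrophil genes had medians of 20 (19 to 21) and 16 there.

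**Figure D1:**
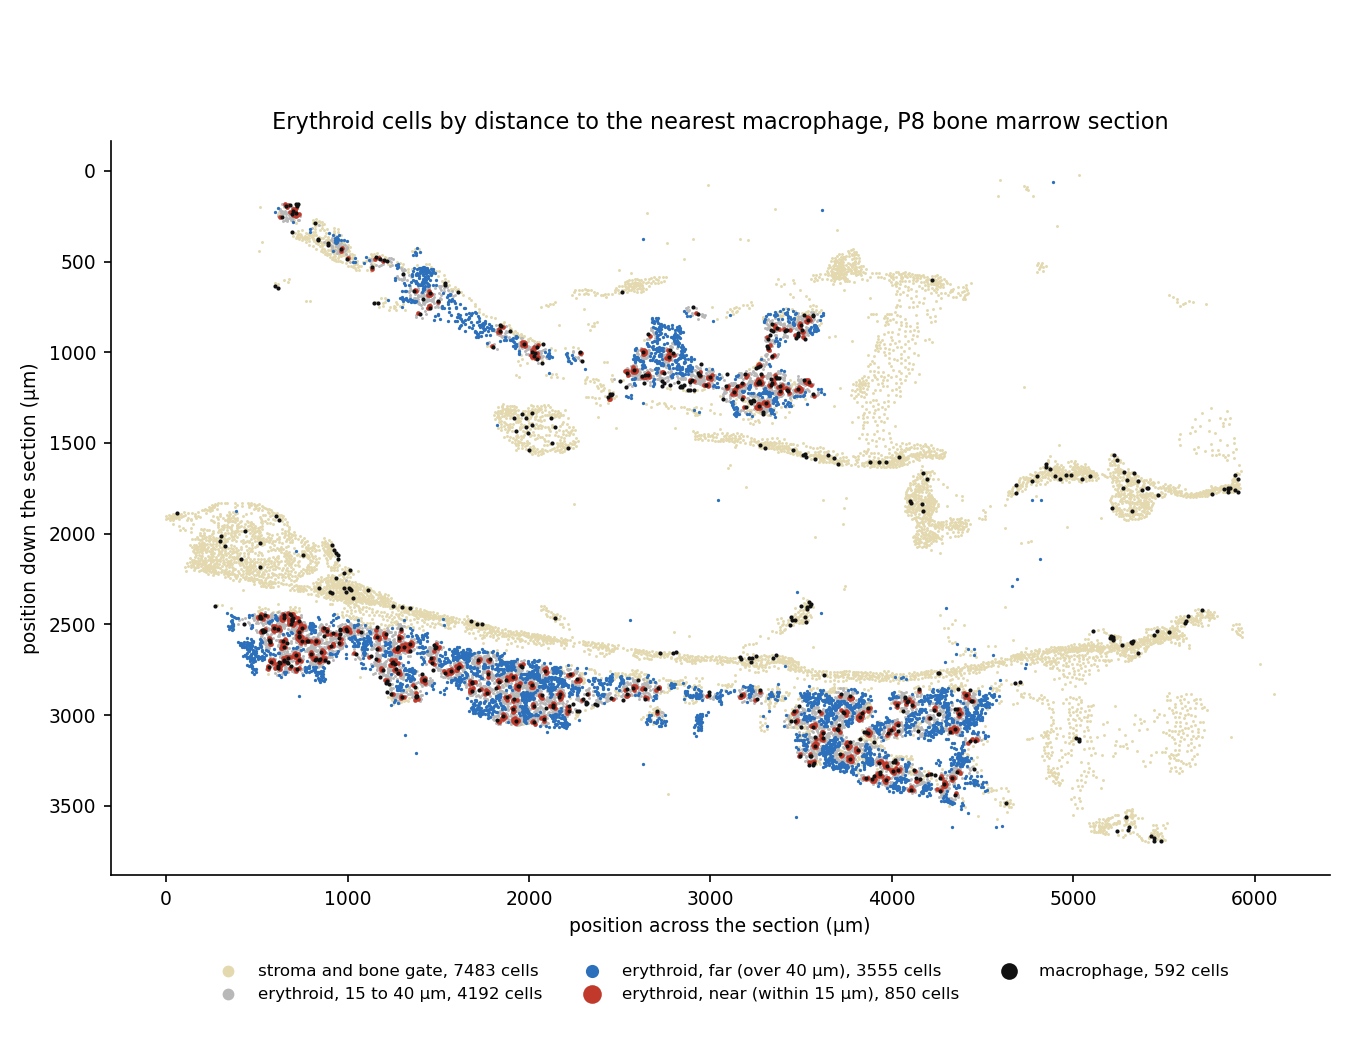
Positions of cells in the P8 bone marrow section, in µm across and down the section. Red points are the 850 near and blue points the 3555 far erythroid cells, grey points the 4192 between them, black points the 592 macrophages, and sand points other cells with 20 or more transcripts of Col1a1 and Col1a2. Near cells sit in small groups around macrophages, in 33 of the 59 tiles of 400 µm that hold far cells. Many macrophages along the bone and in outer tissue have no erythroid cell of this rule beside them. Cells left out of the rule for their C1q transcripts are not drawn as erythroid.

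Gene levels were compared as CPM, the transcripts of a gene summed over the cells of a group, divided by all gene transcripts of these cells and scaled to a total of 1000000. Of the 477 genes, 147 besides Slc4a1 and the C1q genes had at least 200 transcripts over both groups, and their median log2 ratio of near over far was 0.02. Only 2 genes were 1.5-fold or more higher near macrophages, 1.36% of those compared, and both belong to the macrophage list, Aif1 and Il18. A further 8 genes, 5.44%, were lower by this fold: Wif1, Atp6v0d2, Car3, Serpinf1, Col1a1, Sdc1, Col1a2 and Myl9. With the smaller fold of 1.2, 12 genes were higher (8.16%) and 25 lower (17.0%). No erythroid gene passed either fold. Several of these calls depended on how the groups were set. With near extended to 20 µm, Aif1 and Il18 had ratios of 1.27 and 1.29, and Col1a2 (0.687), Sdc1 (0.678) and Myl9 (0.868) were no longer 1.5-fold lower. With near limited to 10 µm the same 3 lower genes lost their call, at 0.686, 0.7304 and 0.719. With far set beyond 60 µm, Aif1 and Il18 had 1.57 and 1.62 but fell under 200 transcripts. Within tiles of 400 µm Il18 had 1.48, and with far cells weighted to the Slc4a1 counts of near cells Aif1 had 1.496 and Myl9 0.671. With far cells weighted to the crowding of near cells, Car3 and Wif1 alone of the 8 lower genes stayed past 1.5-fold.

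At the limits of the rule, the erythroid program differed little between near and far cells. Of the 24 erythroid genes, 23 reached 200 transcripts, and their log2 ratios lay between −0.09 and 0.19 with a median of 0.07. The direction was uneven, with 20 of the 23 above 1, against 53.7% of all genes compared. The counting interval lay above 1 for 8 of them and below 1 for 2, against 17.0% and 14.3% of all genes. Intervals narrow with transcript number, so these shares set genes of unlike depth side by side. Hemgn, at a ratio of 1.03 from 5138 near transcripts, had an interval above 1. Adgre1, at 1.27 from 83, did not. The lead of the erythroid median over that of all genes depended on the setting. With far cells weighted by crowding both were 0.033, and with only transcripts over the nucleus 0.014 and 0.013. More than 30 µm from stroma and bone cells, defined below, they were 0.030 and 0.064. With macrophages taken from 20 C1q transcripts they were −0.091 (reversed) and 0.11, and from 5, which left 364 far cells, 0.27 and 0.083. Of 17 alternatives, the erythroid median kept its size in 5. Summed over the 4 erythroid lists, near cells held 564097 and far cells 550454 CPM, a ratio of 1.02 (1.02 to 1.03). In the strip with 323 of the 850 near cells, 1 of 4 strips of equal far cell number across the section, the ratio was 0.985 (0.971 to 0.999), and in the other 3 strips it was 1.03 to 1.07.

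The 3 regulators of the lineage had ratios above 1, though not evenly over the section or by distance. Klf1, a transcription factor that switches on globin and membrane genes, had 11214 CPM near and 9835 CPM far, a ratio of 1.14 (1.07 to 1.21) and the highest among the erythroid genes. It was above 1 in each of the 4 strips (1.09 to 1.22) and in each of 5 ranges of Slc4a1 count (1.06 to 1.19). Gata1, the master regulator of erythroid genes, had a ratio of 1.09 (1.02 to 1.18), with 0.954 in the strip that holds 323 of the 850 near cells and 1.07 to 1.33 in the others. Hemgn, a nuclear protein of hematopoietic cells, had 1.03 (1.00 to 1.07). Within 10 µm of a macrophage Gata1 stood at 6872 and Hemgn at 41606 CPM, and neither was above its level in far cells, 7118 and 41624 CPM.

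Surface and transport genes split by gene. Aqp1, a water channel of the red cell membrane, had 30299 CPM near and 26980 CPM far, a ratio of 1.12 (1.08 to 1.17) that was above 1 in 4 of 4 strips. Epor, the erythropoietin receptor, had 1.13 (1.05 to 1.202), also in 4 of 4 strips, and Rhd, a Rhesus blood group protein, 1.05 (1.01 to 1.10). By range of Slc4a1 count Epor was above 1 in 4 of 5, with 0.932 (0.795 to 1.09) at 8 to 9 transcripts. Tfrc, which takes up transferrin-bound iron, was lower near macrophages, 35730 against 37146 CPM, with a ratio of 0.962 (0.9302 to 0.994). In the strips, however, Tfrc was above 1 in 3 and below 1 in 1, so its direction was not that of each stretch of the section. Cd36, a fatty acid transporter, Kit and Slc14a1, a urea transporter, had intervals that held 1, with ratios between 1.01 and 1.05. Podxl gave only 36 near and 143 far transcripts and did not reach 200 in total.

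The genes for heme, iron and globin had the lowest median log2 ratio of the 4 erythroid lists, 0.02. Their ratios were 0.987 for Slc25a37, which imports iron into mitochondria, 1.01 for the last enzyme of heme synthesis Fech and 1.04 for Isca1, which builds iron-sulfur clusters. Each of their intervals held 1. Hbb-bt, a beta-globin gene with a near-identical copy whose transcripts may be read along with it, had 12.6 transcripts per near and 12.4 per far cell, a ratio of 1.02 (0.999 to 1.04).

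Among the enzymes, Ctse and Car2 went opposite ways. Ctse, an aspartic protease abundant in erythroblasts, had 43022 CPM near and 39330 CPM far, a ratio of 1.09 (1.06 to 1.13), above 1 in 3 of 4 strips and in 5 of 5 ranges of Slc4a1 count. Car2, carbonic anhydrase 2, had 45654 CPM near and 48504 CPM far, a ratio of 0.941 (0.914 to 0.969). It was below 1 in 3 of 4 strips and in all 5 ranges of Slc4a1 count (0.922 to 0.957). The interval excluded 1 in a single strip, the one with 323 near cells, at 0.856 (0.813 to 0.901), while the others had 1.02, 0.966 and 0.997 with intervals that held 1. Hk1, the hexokinase that starts glycolysis, had 1.09 (1.02 to 1.17). Isg20, Plek2, Ndufa4l2 and Selenbp1 had ratios between 1.07 and 1.11 with intervals that held 1. Slc4a1, which chose the cells, had a median of 12 transcripts in both groups and gives no comparison.

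The 4 cell cycle genes were all above 1 in near over far, and 3 of their intervals lay above 1, against 53.7% and 17.0% of all genes compared. As for the erythroid genes, the share of intervals depends on transcript number. Diaph3, a formin needed for cell division, stood at 8742 CPM near and 7439 CPM far, a ratio of 1.18 (1.10 to 1.26) and above 1 in 4 of 4 strips. Cenpf, a kinetochore protein, had 1.11 (1.02 to 1.21), and Ube2c, which marks mitotic proteins for destruction, 1.09 (1.02 to 1.17), each above 1 in 3 of 4 strips. Stmn1, a regulator of microtubules, had 1.02 (0.969 to 1.07) and was above 1 in 2 of 4 strips. Their sum was 38446 CPM near and 35596 CPM far, a ratio of 1.08 (1.05 to 1.12), and lay between 1.04 and 1.09 in the 4 strips. By range of Slc4a1 count this ratio ran from 0.998 to 1.16 and was above 1 in 4 of 5. None of these genes reached a fold of 1.2.

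**Figure D2:**
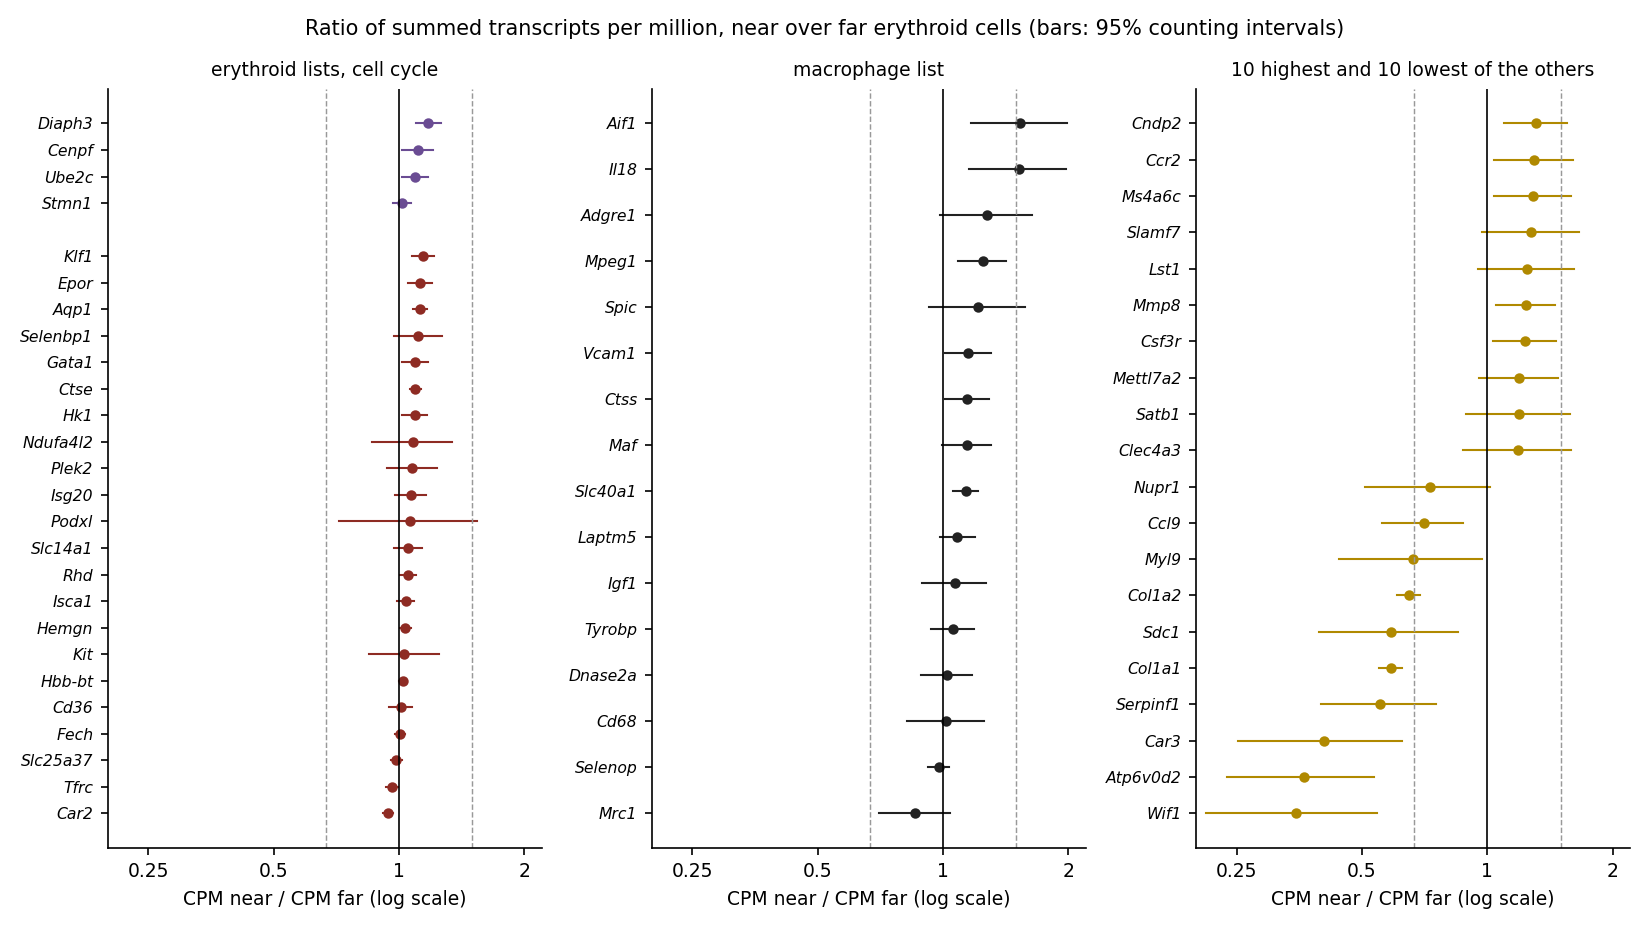
Ratio of CPM in near over far erythroid cells for the named genes on a log scale, with 95% counting intervals as bars, a solid line at 1 and dashed lines at 1.5-fold either way. Erythroid and cell cycle genes stay within 1.2-fold of 1, Aif1 and Il18 pass 1.5-fold in the macrophage list, and the lowest ratios belong to Wif1, Atp6v0d2 and Car3.

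Macrophage genes were the only list with members 1.5-fold higher in near cells. Of its 25 genes, 16 reached 200 transcripts, 14 of these were above 1, against 53.7% of all genes compared, and the median log2 ratio was 0.18. The whole list held 47539.6 CPM near and 43771.7 CPM far, a ratio of 1.09 (1.05 to 1.12), and was above 1 in 4 of 4 strips. The lowest strips had 1.02 (0.957 to 1.09) and 1.02 (0.956 to 1.09). By range of Slc4a1 count the list was above 1 in 4 of 5, from 0.967 to 1.19. Aif1, a calcium-binding protein of macrophages, gave 79 transcripts in near and 218 in far cells, 662 and 433 CPM, a ratio of 1.53 (1.17 to 1.99). Il18, an inflammatory cytokine, gave 78 and 217, 654 and 431 CPM, a ratio of 1.52 (1.16 to 1.97). Both were above 1 in 4 of 4 strips, between 1.005 and 1.95 for Aif1 and between 1.08 and 2.23 for Il18.

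Other genes of macrophage function were less raised. Mpeg1, a pore-forming protein, had a ratio of 1.24 (1.09 to 1.42), and Slc40a1, the iron exporter ferroportin, 1.13 (1.06 to 1.21). Vcam1, the adhesion molecule of island macrophages, had 1.15 (1.01 to 1.31) and Ctss, a lysosomal protease, 1.14 (1.01 to 1.29). Vcam1 was above 1 in 2 of 4 strips (0.791 to 1.53), and Mpeg1, Slc40a1 and Ctss were in 3 of 4. Adgre1, which encodes the F4/80 antigen, had 1.27 (0.985 to 1.63) and Spic, a transcription factor of iron-recycling macrophages, 1.21 (0.926 to 1.57). Within 10 µm of a macrophage Adgre1 had 1.60 (1.05 to 2.37) and Spic 1.57 (1.01 to 2.35). Both also passed 1.5-fold when cells with 1 to 9 C1q transcripts were kept. Maf, Laptm5, Igf1, Tyrobp, Dnase2a and Cd68 lay between 1.02 and 1.14 with intervals that held 1. Dnase2a, the enzyme that digests the DNA of engulfed nuclei, stood at 0.296 transcripts per near and 0.294 per far cell. Selenop and Mrc1, the mannose receptor, were below 1, at 0.976 (0.920 to 1.03) and 0.857 (0.702 to 1.04). Marco, a scavenger receptor named here after its values were seen, did not reach 200 transcripts but had the highest ratio of the list, 2.89 (2.07 to 4.00), from 65 transcripts in near and 95 in far cells.

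Macrophages held more of these genes than erythroid cells did, but their outlines held erythroid transcripts too. Of the 592 macrophages, 213 held 8 or more Slc4a1 transcripts, the limit used for erythroid cells, and a macrophage held a mean of 6.89 Slc4a1 and 7.84 Hbb-bt transcripts. A macrophage also held a mean of 9.49 Col1a1 transcripts, and 167 of the 592 held 20 or more transcripts of Col1a1 and Col1a2, the limit for stroma and bone cells. A macrophage held a mean of 1.37 Adgre1, 0.811 Aif1, 0.708 Il18 and 0.728 Marco transcripts, and an erythroid cell 0.0976, 0.0929, 0.0918 and 0.0765 near and 0.0774, 0.0613, 0.0610 and 0.0267 far. Slc40a1 and Laptm5 were less particular, at 4.81 and 2.12 per macrophage against 1.13 and 0.583 per far cell. The level in the near cells that were kept was thus closer to that of far cells than to that of macrophages for each of these genes. The rule kept only erythroid cells without a C1q transcript, and these were poorer in macrophage transcripts. Near cells left out by it held 84148 CPM of the macrophage list, against 47539.6 CPM in those kept. In far cells these values were 70968 and 43771.7 CPM. How much of the closeness comes from the rule was not tested.

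Within the near group, the macrophage genes were higher in the cells within 10 µm than in those from 10 to 15 µm. In the 231 erythroid cells within 10 µm of a macrophage, the list held 54225 CPM, a ratio to far cells of 1.24 (1.18 to 1.30). In the 619 cells from 10 to 15 µm it held 45088 CPM, a ratio of 1.03 (0.995 to 1.07). Aif1 had ratios of 2.38 (1.60 to 3.45) and 1.22 (0.866 to 1.68) in these zones, and Marco 4.47 (2.80 to 6.92) and 2.31 (1.54 to 3.40). Vcam1 had 1.499 (1.22 to 1.83) and 1.02 (0.875 to 1.19), and Slc40a1 1.33 (1.19 to 1.49) and 1.06 (0.978 to 1.15). Il18 was above 1 in both zones, at 1.81 (1.15 to 2.75) and 1.41 (1.02 to 1.91). The cell cycle genes showed no such step, with 1.09 (1.03 to 1.16) within 10 µm and 1.08 (1.04 to 1.12) from 10 to 15 µm. The erythroid lists had 1.01 (0.996 to 1.03) and 1.03 (1.02 to 1.04). Genes past 1.5-fold within 10 µm were not confined to the macrophage list. Of these 7 genes, Adgre1, Aif1, Il18 and Spic were macrophage genes. Cxcr2 and Ly6g belong to the neutrophil list and Pf4 to the megakaryocyte list. The neutrophil list as a whole had 0.986 (0.940 to 1.03) there. The level of the macrophage list did not fall steadily with distance, since erythroid cells from 15 to 25 µm, which belong to neither group, held 48546 CPM of it, and 2740 CPM of Vcam1 against 2280 CPM from 10 to 15 µm.

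**Figure D3:**
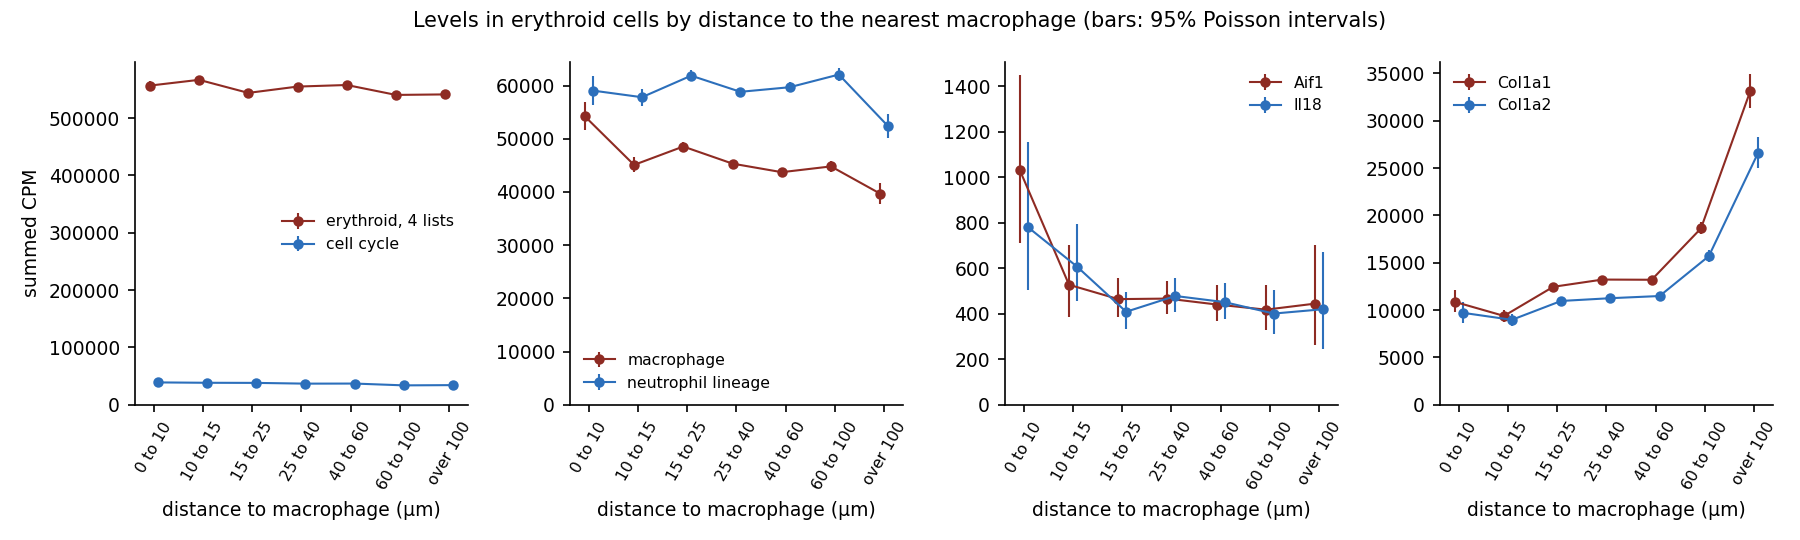
Summed level in CPM against distance from the nearest macrophage in 7 ranges, with 95% Poisson intervals, for the erythroid and cell cycle lists, the macrophage and neutrophil lists, Aif1 and Il18, and Col1a1 and Col1a2. The erythroid lists stay between 540469 and 566796 CPM, the cell cycle list falls from 38919 CPM within 10 µm to 33759 CPM at 60 to 100 µm, Aif1 and Il18 are highest within 10 µm, and both collagen genes rise beyond 60 µm.

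The place of single transcripts inside the cell outline was also read. A transcript was counted as facing the macrophage when it lay on that side of the cell center. In near cells, 53.6% (52.3% to 54.9%) of 5672 macrophage-list transcripts faced the macrophage, against 51.5% (51.1% to 51.8%) of the erythroid-list and 47.3% (46.2% to 48.5%) of the neutrophil-list transcripts. In far cells, whose nearest macrophage lies more than 40 µm away, the same 3 shares were 53.1%, 52.7% and 53.1%. The intervals of the macrophage-list share in near and far cells overlapped. Within 10 µm of a macrophage this share was 57.4% (55.1% to 59.8%), above the interval of far cells (52.5% to 53.8%), and that of the erythroid lists was 50.1% (49.3% to 50.8%). When only transcripts over the nucleus were counted, none of the 112 genes with 200 such transcripts was 1.5-fold higher or lower, against 147 genes compared before. Aif1 (1.88), Car3 (0.457), Atp6v0d2 (0.621), Wif1 (0.634) and Sdc1 (0.643) stayed past that fold but fell short of 200 transcripts, whereas Il18 (1.44), Col1a1 (0.821) and Col1a2 (0.809) did not stay past it. How much of the near ratios comes from transcripts of a neighboring cell was not tested.

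Of the 8 genes that were 1.5-fold lower near macrophages, 3 belong to the list of stroma and bone, Col1a1, Col1a2 and Serpinf1, and the other 5 to none of the lists. Col1a1 and Col1a2, the chains of type I collagen made by osteoblasts and other stromal cells, had 9781 and 9169 CPM in near and 16687 and 14162 CPM in far cells, ratios of 0.586 (0.551 to 0.623) and 0.647 (0.607 to 0.690). Both were below 1 in 4 of 4 strips, but within tiles of 400 µm they had 0.690 and 0.725 and with crowding weighted 0.9504 and 0.945, short of 1.5-fold. Wif1, a secreted Wnt inhibitor of the osteoblast lineage, gave 21 transcripts in near and 255 in far cells, a ratio of 0.348 (0.212 to 0.543). Atp6v0d2, a proton pump subunit of osteoclasts, gave 28 and 326, a ratio of 0.363 (0.237 to 0.534). Serpinf1, a secreted factor of bone matrix, had 0.553 (0.398 to 0.754), and Sdc1, a cell surface proteoglycan, 0.588 (0.396 to 0.849). Car3, carbonic anhydrase 3, known from muscle and fat, had 0.406 (0.253 to 0.624), and Myl9, a myosin light chain of contractile cells, 0.664 (0.440 to 0.974). The next lowest were Ccl9, a chemokine, with 0.704 (0.560 to 0.877), and Nupr1, a stress response gene, with 0.727 (0.509 to 1.02).

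The list of stroma and bone as a whole held 29050 CPM near and 42609 CPM far, a ratio of 0.682 (0.658 to 0.707). Of its 19 genes, 13 reached 200 transcripts, 11 of these were below 1 and 3 were 1.5-fold lower, where of all genes compared 53.7% were above 1 and 5.44% were 1.5-fold lower, with a median log2 ratio of −0.26. Single places weighed on some of these values. Of the Atp6v0d2 transcripts in far cells, 50% lay in 1 tile of 400 µm, and 26.1% in 5 cells. For Col1a1 the richest tile held 12.45%, and the richest 5 cells 5.45%. Atp6v0d2, Car3 and Myl9 were below 1 in 3 of 4 strips, while Wif1, Serpinf1 and Sdc1 were below 1 in each.

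Position relative to bone moved with these genes. Cells with 20 or more transcripts of Col1a1 and Col1a2 were taken as stroma and bone cells, erythroid cells excepted and the 167 macrophages that passed included. This gate uses the same genes that are then compared, so a distance to it is not independent of the collagen level of the surroundings. Within 15 µm of such a cell lay 8.12% (6.37% to 10.2%) of near and 9.73% (8.78% to 10.8%) of far cells. For a near cell, its own macrophage can be the stroma and bone cell, which cannot happen to a far cell. These shares, and the near values within 15 µm, are therefore not a like measure of closeness to stroma. In the cells within 15 µm, Col1a1 and Col1a2 together reached 64165 CPM near and 80951 CPM far. Beyond 60 µm they fell to 10201 and 12976 CPM, with a ratio of 0.786 (0.709 to 0.870). The widest gap lay at 15 to 30 µm, with 24966 and 52509 CPM and a ratio of 0.475 (0.433 to 0.522). Serpinf1 had 740 CPM near and 3215 CPM far within 15 µm, and 226 and 170 CPM beyond 60 µm. Atp6v0d2 had 211 and 2776 CPM within 15 µm, the first from 2 transcripts, and 294 and 236 CPM beyond 60 µm.

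When only the 641 near and 2511 far cells more than 30 µm from every stroma and bone cell were compared, an alternative added once the data were known, 129 genes reached 200 transcripts and none of these was 1.5-fold lower near macrophages, while Aif1 (1.61) and Il18 (1.54) were 1.5-fold higher. Myl9 (0.536) and Car3 (0.590) were still past 1.5-fold lower but fell short of 200 transcripts. Col1a1 and Col1a2 had ratios of 0.728 and 0.818. This step also left out any near cell whose own macrophage passed the stroma and bone gate, which could not happen to far cells. In far cells within 15 µm of a stroma and bone cell, 55.6% (54.1% to 57.1%) of the Col1a1 and Col1a2 transcripts faced that cell, against 47.6% (47.0% to 48.2%) of the erythroid-list transcripts. Only 39.01% (38.2% to 39.8%) of the Col1a1 and Col1a2 transcripts in far cells lay over the nucleus, against 64.5% (64.4% to 64.7%) of the erythroid-list transcripts. In near cells these shares were 55.0% and 67.0%.

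**Figure D4:**
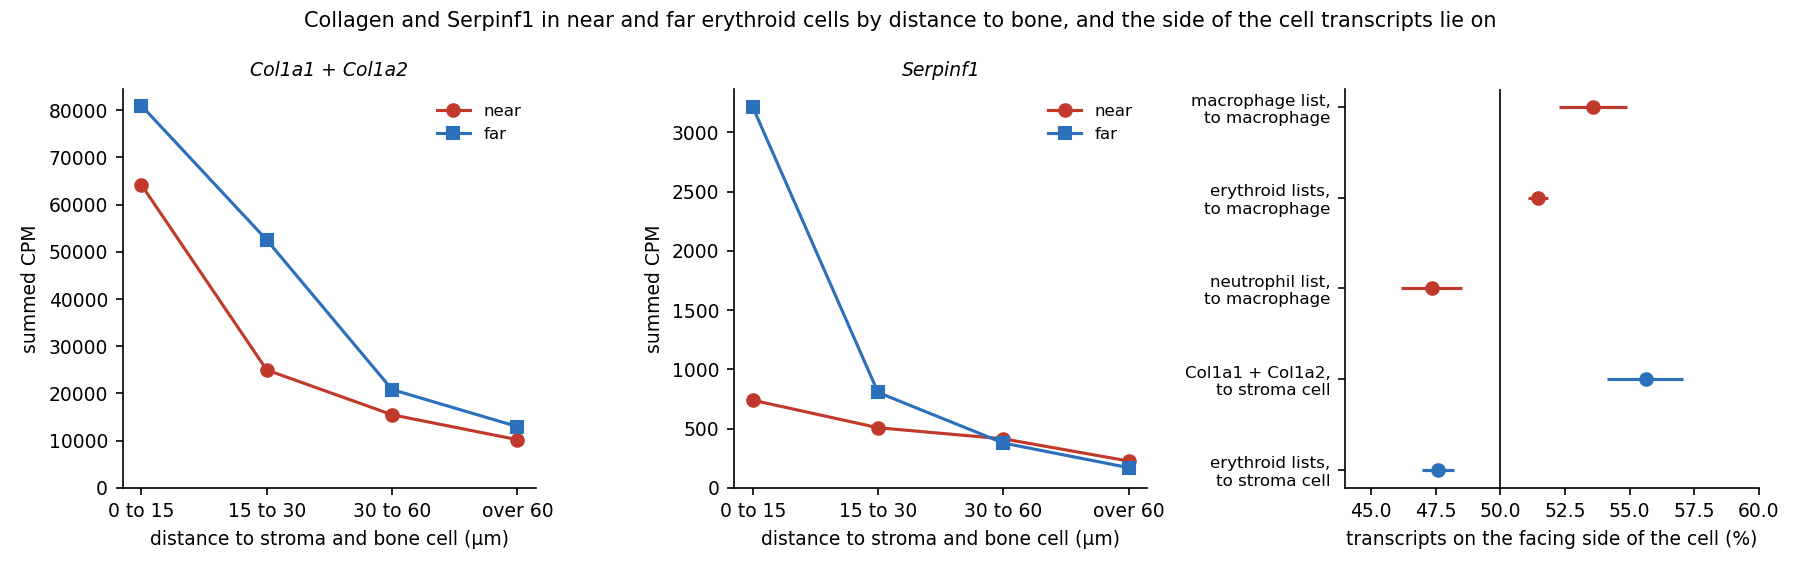
Left and middle, level of Col1a1 plus Col1a2 and of Serpinf1 in CPM in near and far erythroid cells against distance to the nearest stroma and bone cell in µm. Right, percent of transcripts on the side of the cell facing the nearest macrophage (near cells, red) or the nearest stroma and bone cell (far cells within 15 µm of one, blue), with 95% intervals and a line at 50%. Both genes are highest beside bone, and among the 5 shares drawn that of Col1a1 plus Col1a2 is highest, 55.6%.

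Genes of other blood lineages showed no common direction. Of 22 neutrophil lineage genes, 20 reached 200 transcripts, 9 were above 1 (53.7% of all genes compared were) and 11 below, and the median log2 ratio was −0.01. The sum of the list had a ratio of 0.970 (0.945 to 0.996). Mmp8, a collagenase of neutrophil granules, and Csf3r, the receptor for granulocyte colony-stimulating factor, were among the 10 highest genes outside the main lists, at 1.24 (1.05 to 1.45) and 1.23 (1.03 to 1.47). Mmp8 was above 1 in 1 of 4 strips (1.79) and between 0.446 and 0.939 in the others, and the neutrophil list as a whole was 1.14 in that strip and 0.765 to 0.902 in the others. Csf3r and Ccr2 were above 1 in 2 of 4 strips. The monocyte genes Ccr2, a chemokine receptor, and Ms4a6c were also among them, at 1.30 (1.04 to 1.61) and 1.29 (1.04 to 1.59), and so was Cndp2, a dipeptidase, at 1.31 (1.10 to 1.56) and above 1 in 4 of 4 strips. Within 10 µm Ccr2 stood at 718 CPM against 717 CPM in far cells, and the monocyte list had a ratio of 0.927 (0.801 to 1.07) there and 1.11 (1.02 to 1.21) from 10 to 15 µm. Slamf7, Lst1, Mettl7a2, Satb1 and Clec4a3 completed that group with ratios of 1.19 to 1.28 and intervals that held 1. All 10 endothelial genes compared were below 1, with a median log2 ratio of −0.17, and the interval of 1 of them lay below 1, where 53.7% of all genes compared had a ratio above 1 and 14.3% an interval below 1. Near cells lay a median of 25.7 µm and far cells 29.5 µm from the nearest cell with 5 or more transcripts of 4 endothelial genes. The 5 megakaryocyte genes had a median log2 ratio of −0.25, with 2 ratios above 1 and 1 interval below 1. Their sum had a ratio of 0.941 (0.867 to 1.02), an interval that held 1.

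The outline of near cells was smaller, and the nucleus was not clearly so. The cell area had a median of 39.8 µm2 in near cells (lowest 16.1, highest 274) and 43.9 µm2 in far cells (lowest 13.3, highest 981). The ratio of the medians was 0.907, with 0.865 and 0.954 when the bounds of both medians were set against each other. It was below 1 in 4 of 4 strips (0.881 to 0.936). The nucleus area was 24.6 µm2 near and 25.1 µm2 far, a ratio of 0.980 with bounds of 0.942 and 1.04. The nucleus filled a median of 66.4% of the near and 62.8% of the far outlines, and near cells held 3.41 and far cells 3.05 transcripts per µm2.

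Crowding moved with the outline. Of the far cells, 24.3% had 10 or fewer other cells within 15 µm, against 8.47% of the near cells, and in this range the median outline was 119 µm2 far and 65.8 µm2 near. With 11 to 13 neighbors the medians were 46.2 µm2 near and 48.1 µm2 far, with 14 to 16 they were 41.1 and 42.4 µm2, with 17 to 19 they were 36.3 and 36.9 µm2, and with 20 or more 34.0 and 33.5 µm2. With far cells weighted to the number of neighbors of the near cells, the ratio of the medians was 0.980, above the upper bound of 0.954 before weighting. Outlines were drawn by expanding the nucleus until it met a neighbor or a distance limit, so an outline in sparse tissue is not a measure of cell size alone.

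**Figure D5:**
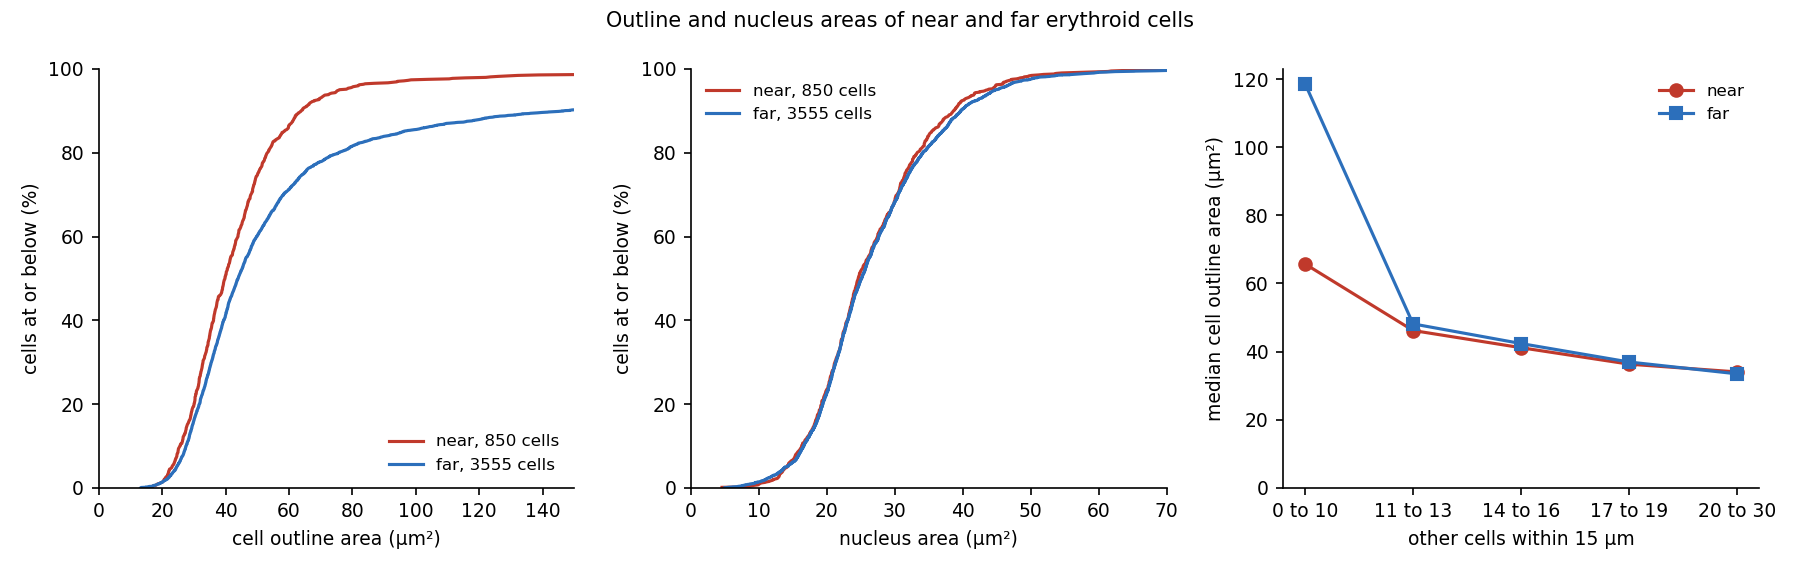
Left and middle, cumulative percent of near (red) and far (blue) erythroid cells against cell outline area and nucleus area in µm2. Right, median outline area against the number of other cells within 15 µm. The nucleus curves nearly coincide, and the outline medians differ mainly where 10 or fewer cells lie within 15 µm, 65.8 µm2 near against 119 µm2 far.

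The E14.5 fetal liver lay on the same slide and was read with the same panel, and the same rule gave 7488 near and 9618 far erythroid cells there. In the liver 11 of 241 genes (4.56%) were 1.5-fold higher and 12 (4.98%) 1.5-fold lower near macrophages. All 11 higher genes belong to the macrophage list. The sum of that list had a ratio of 1.09 (1.08 to 1.10) in the liver and 1.09 (1.05 to 1.12) in the marrow. Adgre1 had a ratio of 2.19 (1.94 to 2.47) in the liver and 1.27 in the marrow, Spic 2.13 (1.83 to 2.47) and 1.21, and Aif1 2.00 (1.71 to 2.34) and 1.53. Il18 was above 1 in both, at 1.24 (1.03 to 1.497) in the liver and 1.52 (1.16 to 1.97) in the marrow, with overlapping intervals. The erythroid genes had a median log2 ratio of 0.01 in the liver and 0.07 in the marrow. The sum of the cell cycle list had 0.993 (0.983 to 1.004) in the liver, with 3 of its 4 genes below 1. In the marrow it had 1.08 (1.05 to 1.12), with all 4 above 1. Of 137 genes compared in both tissues, 25 had intervals on the same side of 1 and 6 on opposite sides. Those 6 were Aqp1, Alox5ap, Ccr2 and Cenpf, above 1 in the marrow and below 1 in the liver, and Car2 and Ppbp, the reverse. Aqp1 had 0.955 (0.928 to 0.981) and Car2 1.04 (1.03 to 1.06) in the liver. The median outline ratio was 0.914 in the liver and 0.907 in the marrow. With 1 section of each tissue, these differences were not tested.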

How the data were processed

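The authors deposited raw transcript counts for every gene in every segmented cell, not normalized, beside a table of cell centers and of outline and nuclear areas. The run description names Xenium Onboard Analysis 1.7.1.0, whereas the paper names Space Ranger. The deposited table of single transcripts carries a quality score (qv); at a score of 20 or more it gave 7211236 transcripts, of which 89.4% lay in cells, and 0 differences from the count matrix. Counts were used as deposited, with no cell filter beyond the rule and no doublet caller, so an outline over several cells counted as 1. Of the 4405 cell identifiers, 1 also occurs in another section, as a name only.

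Transcripts were summed per group and divided by the group total (CPM). Ratios of near over far carry exact conditional binomial intervals, shares Clopper-Pearson intervals, and medians order-statistic bounds, with numpy 2.4.6, pandas 2.3.3 and scipy 1.17.1. The ratio and its interval were tested on simulated counts, drawn independently from the pooled profile of both groups with known changes added. The interval assumes such counts, so this could not show how clumping of transcripts in cells or places affects it. Genes with at least 200 transcripts over both groups entered the counts of calls, and a ratio past 1.5-fold was called; values of a few genes under that minimum are given as such. Named were all erythroid and cell cycle genes, macrophage genes with 200 transcripts, and the 10 highest and 10 lowest others; some genes are not reported here. The members and lists were chosen with earlier results of these data known. Strips hold equal numbers of far cells. With 1 section per condition, there is no p-value and no SD over animals. Alternatives changed each limit of the rule, the transcripts counted, the scaling and the makeup of the far group.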

Additional observations from a re-analysis of the deposited data

How the results depend on the processing

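A total of 17 alternatives were run, 15 planned and 2 added once the data were known (cells with 1 to 9 C1q transcripts kept, and cells near bone left out). Of 126 summary values, 58 kept their direction and size, and of 1069 values of single named genes 830 did. The outline ratio stayed below 1 in 12 of 12 alternatives that could move it, the macrophage-list median above 0 in 16 of 16, and Col1a1 and Car2 below 1 in 17 of 17. Klf1 and Aqp1 were above 1 in 16 of 17 and Aif1 in 16 of 16. Changes are given as median log2 ratios for gene lists, as ratios of medians for areas and transcripts per cell, and as counts of genes past 1.5-fold; no cause of a change was tested unless stated.

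With macrophages taken from 5 C1q transcripts, which left 364 far cells, 11 genes were higher and 16 lower, with medians of 0.27 (erythroid) and 0.023 (neutrophil, reversed), an outline ratio of 0.425 and a transcript ratio of 0.928. From 20 C1q transcripts, which left 76 near cells, 33 genes were higher and 26 lower, with medians of −0.091 (erythroid, reversed), 0.28 (macrophage) and 0.57 (neutrophil, reversed), ratios of 0.978 (outline), 0.932 (nucleus) and 1.07 (transcripts), and Il18 at 0.773 (0.210 to 1.99) from 4 near transcripts. With 15 or more Slc4a1 transcripts, 1 gene was higher and 4 lower, with medians of 0.021 (erythroid), 0.094 (macrophage) and −0.29 (neutrophil) and a transcript ratio of 1.03.

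With near set at 10 µm, 7 genes were higher: Adgre1, Aif1, Il18, Spic, Cxcr2, Ly6g and Pf4. The medians were 0.019 (erythroid), 0.39 (macrophage) and 0.0079 (neutrophil, reversed), with 57.4% of macrophage-list transcripts facing. At 20 µm, 0 genes were higher, with medians of 0.044, 0.13 and 0.051 (reversed) and a facing share of 52.2%. With far set beyond 60 µm, 0 genes were higher, with medians of 0.12, 0.064 and −0.063 and an outline ratio of 0.862; Aif1 and Il18, at 1.57 and 1.62, fell under the minimum of 200 transcripts there.

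Counting only transcripts over the nucleus, with 112 genes tested, left 0 higher and 0 lower, an erythroid median of 0.014 and a transcript ratio of 1.05. Counts per cell gave an erythroid median of 0.057. Weighting far cells by Slc4a1 count left 1 gene higher and a neutrophil median of −0.057. Comparison within 400 µm tiles left 1 higher, Aif1, and among the lower genes Col1a1 and Col1a2 lost their call and Ppbp gained one, with medians of 0.12 (macrophage) and −0.081 (neutrophil). Weighting by crowding left 2 lower, Car3 and Wif1, with medians of 0.033 (erythroid), 0.26 (macrophage) and 0.030 (neutrophil, reversed) and an outline ratio of 0.980. A minimum of 50 transcripts, which tests more genes, gave 11 higher and 24 lower. Thinning each cell to 60 transcripts, which tests fewer, gave 0 higher and 1 lower, with medians of 0.13 (macrophage) and −0.10 (neutrophil).

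Erythroid cells without any macrophage-list transcript were only 28 near and 136 far. They gave 0 genes higher and 1 lower, an erythroid median of 0.033, an outline ratio of 0.816 and a nucleus ratio of 0.819. Atp6v0d2 (2.52), Wif1 (2.52), Car3 (5.05) and Serpinf1 (3.37) reversed there on 1 to 4 near transcripts, with intervals that all held 1. Keeping cells with 1 to 9 C1q transcripts gave 10 higher, medians of 0.018 (erythroid) and 0.45 (macrophage) and a transcript ratio of 1.04. Beyond 30 µm of stroma and bone cells 0 of 129 genes tested were lower (Myl9 and Car3, at 0.536 and 0.590, fell under the minimum), the erythroid and neutrophil medians were 0.030 and 0.040 (reversed), and Atp6v0d2 (1.52, 0.928 to 2.43) and Serpinf1 (1.19, 0.758 to 1.83) reversed with intervals that held 1.

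No paired analysis was possible because each condition has 1 section and the replicate numbers pair nothing. Depth limits the called genes: Aif1 and Il18 rest on 79 and 78 near transcripts and Wif1, Car3, Atp6v0d2 and Myl9 on 21 to 31, and genes under 200 transcripts were left out of the counts of calls unless a lower minimum is named.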

Other observations

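Among 75 genes with at least 50 but fewer than 200 transcripts over near and far cells, the interval of the ratio lay above 1 for Marco, Prss3 and Gpx2, among others, and below 1 for 6, Ccn3, Ttn, Col2a1, Kng2, Rgs5 and Ptn. Marco was detected in 50 of 850 near cells (5.88%) and in 87 of 3555 far cells (2.45%), with at most 4 transcripts in a cell, and in 122 of 592 macrophages. The sum of 5 cartilage genes had a ratio of 0.646 (0.449 to 0.907) from 39 near and 255 far transcripts, and that of 12 skeletal muscle genes 0.579 (0.440 to 0.752) from 65 and 474. These genes were picked out by their values and were not tested further.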
